A study of Mus musculus with 6 samples.

Results

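Mitochondrially encoded genes are the genes of the small circular chromosome (MT) that mitochondria carry in many copies, apart from the nuclear genome. They were chosen here as every gene on chromosome MT in the deposited count files, which gave 37 of 55416 genes: 2 ribosomal RNAs (rRNA), 22 transfer RNAs (tRNA) and 13 messenger RNAs (mRNA). All 37 had the symbol prefix mt- and no gene outside the chromosome had it. Of the 37, 10 had reads and 27 had 0 counts in all 6 libraries.

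The libraries came from oligodendrocyte precursor cells, the dividing progenitors of myelin-forming cells, isolated from the cortex of mice at postnatal day 11. Mice of the 3 Ift88 cKO samples were Pdgfra-Cre:Ift88 fl/fl; RosaEYFP, so that Cre under the Pdgfra promoter deletes both floxed copies of Ift88, a gene of intraflagellar transport needed to build the primary cilium. Mice of the 3 Ift88 control samples were Pdgfra-Cre:Ift88 fl/wt; RosaEYFP and kept 1 wild-type copy, so both groups carried the Cre, at least 1 floxed copy and the EYFP reporter. Each sample pooled cells of 4 to 6 mice, and p-values measure the spread between pools.

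Chromosome MT is transcribed from both strands as long RNAs, which are cut mostly at the tRNAs that lie between the other genes. The mRNAs and rRNAs are then given short adenosine tails, and the tRNAs a terminal CCA. The mRNAs encode core subunits of respiratory chain complexes I, III and IV and of the ATP synthase (complex V), the rRNAs build the mitochondrial ribosome, and complex II has no mitochondrially encoded subunit. The remaining subunits, and the proteins that copy, transcribe and translate the chromosome, are encoded in the nucleus.

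The libraries were unequal. Total counts ran from 11773548 to 13909236 in 5 libraries and were 568509 in cKO replicate 2, where 3651 genes had a count, against 14047 to 16252 in the others. Levels are given in CPM, a gene's count scaled to the library total with no scaling to gene length, since the method reads 1 tag near the 3′ end of a transcript. Where a gene had 0 counts, its level could still be 5.28 CPM in cKO replicate 2 and 0.216 to 0.255 CPM elsewhere, for counting error only. Ift88 itself had 1, 0 and 305 counts in the cKO libraries and 143, 32 and 167 in the controls, so the highest count was in a library labelled cKO. A 3′ tag can lie outside the floxed part and then does not check the genotype, and the groups are named by their labels. Of 15 precursor markers, 5 were at 0 in all libraries, among them Sox10, a transcription factor that defines the lineage. The precursor markers summed to 454, 8.79 and 302 CPM in the cKO libraries and to 574, 651 and 285 CPM in the controls. Ptprz1, Cntn1 and C1ql1 made up most of this sum in every library. Pdgfra had 155, 0 and 121 counts in the cKO libraries and 0, 59 and 56 in the controls. Olig1 and Olig2 had reads in cKO replicate 3 only. The 10 neuron markers summed to 5219, 1632 and 5563 CPM against 5598, 4776 and 1617 CPM. In cKO replicate 2, Tubb3 alone gave 1615 CPM of the neuron sum.

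The mRNA genes at 0 counts lay side by side on the chromosome, whereas tRNA genes at 0 lay all along it. A run of 11 neighbouring genes, between the cytochrome oxidase gene mt-Co1 and the complex I gene mt-Nd4, had no read in any library. It held mt-Co2 and mt-Co3, subunits of cytochrome oxidase (complex IV), mt-Atp6 and mt-Atp8, the proton channel subunit and an accessory subunit of ATP synthase, mt-Nd3 and mt-Nd4l, subunits of complex I, and 5 tRNAs. All 6 mRNA genes of the run were at 0, and all 7 mRNA genes outside it had reads.

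**Figure D1:**
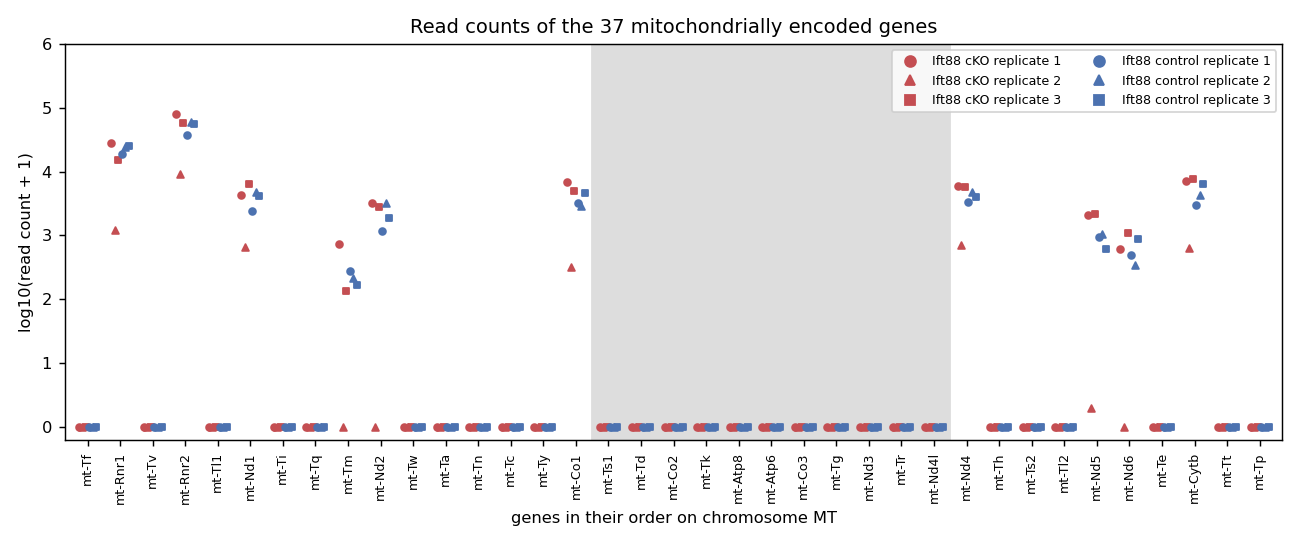
Read count of each of the 37 genes, as log10(count + 1), with the genes in chromosome order on the x axis; each point is 1 library, cKO in red and control in blue, and replicates differ in marker. The grey band holds the 11 genes from mt-Ts1 to mt-Nd4l, at 0 in all 6 libraries, and the rRNA genes mt-Rnr1 and mt-Rnr2 have the highest counts.

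The mRNA genes of this run, apart from most of mt-Atp8, have nearly identical copies on a nuclear chromosome. In the deposited files 7 annotated pseudogenes lie side by side on chromosome 1 (GRCm39, 24650616 to 24655278, minus strand). Their transcripts in GENCODE M21 aligned to stretches of mt-Co1, mt-Co2, mt-Atp6, mt-Co3, mt-Nd3, mt-Nd4l and mt-Nd4 with an identity of 98.8% to 100%, or 7 differing bases in 4149. Together they spanned MT positions 6381 to 11042, with gaps. The tRNA genes of the run and mt-Atp8 lie wholly or mostly in these gaps, whose sequence was not aligned. Of 6 gaps between neighbouring copies, 5 were as long as the gap between the matching stretches of chromosome MT and the other differed by 1 base. The gap that corresponds to mt-Tk and the part of mt-Atp8 before mt-Atp6 was 233 bases on both chromosomes. The last 90 aligned bases of mt-Co2 (bases 592 to 681 of 684) and of its copy Gm28661 are shown because they had no difference.
mt-Co2: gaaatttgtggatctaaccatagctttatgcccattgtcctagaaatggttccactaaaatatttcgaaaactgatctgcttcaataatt
Gm28661: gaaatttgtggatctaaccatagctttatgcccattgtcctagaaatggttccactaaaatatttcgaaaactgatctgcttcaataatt

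In mt-Nd3 the copy Gm28438 differed at 1 base of 345. The first 90 bases hold it, in capitals.
mt-Nd3: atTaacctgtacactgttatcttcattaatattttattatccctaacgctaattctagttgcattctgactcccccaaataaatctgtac
Gm28438: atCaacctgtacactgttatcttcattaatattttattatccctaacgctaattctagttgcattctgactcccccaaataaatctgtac

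The copy of mt-Co1, Gm29216, covers the end of that gene, bases 1054 to 1545. All 6 of its differences, in capitals, fell in the 90 bases at its start, after which copy and gene were identical up to the last base of mt-Co1.
mt-Co1: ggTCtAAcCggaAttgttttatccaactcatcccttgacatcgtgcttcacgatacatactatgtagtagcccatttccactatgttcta
Gm29216: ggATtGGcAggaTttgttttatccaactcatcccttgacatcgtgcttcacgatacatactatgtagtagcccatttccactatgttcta

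The copies had almost no reads either: 2 counts over all 7 genes and 6 libraries, 1 in cKO replicate 1 and 1 in control replicate 3. The counting command names no option for reads that align to more than 1 place, and the counter's default leaves such reads out (command as in the file headers). Whether the reads of these genes were lost in this way was not tested, since the aligned reads were not used here. In these files an absent transcript of mt-Co2 or mt-Atp6 and one whose reads were left out cannot be told apart.

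The same comparison was made for every gene by asking which of its 50-base windows occur exactly in a nuclear transcript. Of the windows of mt-Co2, 100% did, as did 99.9% of mt-Co3, 99.5% of mt-Atp6, 98.8% of mt-Nd4l and 98.0% of mt-Nd3. The 7 mRNA genes with reads had shares of 0% to 62.2% with a median of 7.61%, and the rRNA genes 0% and 1.04%. For mt-Nd4 the share was 62.2% over the gene and 0% in its last 300 bases. For mt-Co1 it was 51.1% over the gene and 100% in the last 300 bases, although the gene had reads in every library. For mt-Atp8 it was 0%. Its last 43 bases, shared with mt-Atp6 and shorter than a window, are matched by the mt-Atp6 copy. No annotated transcript covers the rest of its place in the chromosome 1 block. No tRNA gene had such a window, with 21 of 22 at 0 counts. The annotation covers transcripts only, so copies in unannotated sequence were not counted.

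**Figure D2:**
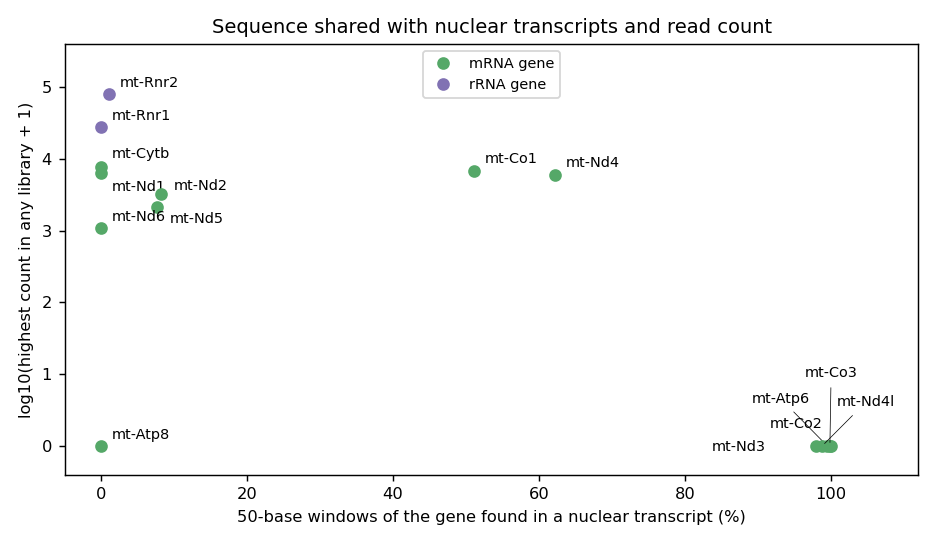
Share of 50-base windows of each mRNA or rRNA gene found exactly in a nuclear transcript (x axis, %) against its highest count in any library, as log10(count + 1). The 5 genes at 98.0% or more are at 0 counts, mt-Atp8 is at 0 counts with a share of 0%, and the genes with reads reach at most 62.2%.

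In all, 15 nuclear genes shared a window with a mitochondrial gene, and 5 of them had at least 100 counts in a library. These were found after the counts were seen. Gm13340 (GRCm39 chromosome 2, 22478115 to 22479659), a full-length copy of mt-Co1 with 97.6% identity, had 780, 690 and 735 CPM in the cKO libraries and 340, 474 and 727 CPM in the controls. A single control library lay within the range of the cKO libraries. AC124578.3 on chromosome 18 matched mt-Atp6 over 187 bases with 93.6% identity. It had 5389, 0 and 3083 counts in the cKO libraries and 2360, 2680 and 2969 in the controls, whereas mt-Atp6 itself had none. Gm4076 on chromosome 13, with 95.2% identity to part of mt-Nd5, had 1078, 0 and 683 counts in the cKO libraries and 335, 549 and 456 in the controls. Gm11407 on chromosome 4, another match to mt-Nd5 at 92.3%, had 158, 0 and 450 counts in the cKO libraries and 383, 286 and 164 in the controls. Gm20594 on chromosome 6, a match to mt-Rnr2 at 88.4%, had at most 106 counts. Reads of a mitochondrial transcript and of such a copy cannot be told apart with certainty, so the levels of mt-Co1, mt-Nd5 and mt-Rnr2 below are uncertain in this respect. So are those of mt-Nd2 and mt-Nd4, whose copies had few or no reads. mt-Nd2 shared 8.19% of its windows with Gm13339, and 31.9% in its last 300 bases. mt-Nd4 shared 62.2% with Gm28439.

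The rRNA genes carried most of the mitochondrial counts. mt-Rnr2, the large subunit rRNA (1582 bases), had 5684, 16160 and 4837 CPM in the cKO libraries and 2746, 4750 and 4133 CPM in the controls. Every cKO library was above every control, cKO replicate 3 by little and cKO replicate 2 by far. By read count, with no scaling to length, it ranked between 3rd and 23rd of all genes in every library. mt-Rnr1, the small subunit rRNA (955 bases), had 1993, 2172 and 1268 CPM in the cKO libraries and 1364, 1878 and 1882 CPM in the controls. Here the groups overlapped, and the lowest value was in cKO replicate 3.

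The pair of rRNAs, which lie next to each other with only mt-Tv between them, therefore stood in different proportions. Reads of mt-Rnr2 per read of mt-Rnr1 were 2.85, 7.44 and 3.82 in the cKO libraries and 2.01, 2.53 and 2.20 in the controls. All cKO libraries were above all controls in this ratio, which was chosen after its values were seen and was not tested. It does not depend on the rest of the library.

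Among the tRNAs only mt-Tm, for methionine, had reads: 727, 0 and 133 counts in the cKO libraries and 274, 214 and 168 in the controls. In CPM this was 52.3, 0 and 11.3 against 20.1, 16.8 and 12.4, so the cKO libraries lay on both sides of the controls. The gene (MT, 3845 to 3913, plus strand) abuts mt-Nd2 and its sequence is given because it was the single tRNA counted.
mt-Tm: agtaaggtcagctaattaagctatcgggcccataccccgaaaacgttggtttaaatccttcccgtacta
The remaining 21 tRNA genes, 59 to 75 bases long, were at 0. The kit primes on adenosine tails, and neither the read length nor a size selection is given in the sources used here.

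Of 7 complex I genes, 5 had reads. Complex I is the NADH dehydrogenase that passes electrons into the chain. mt-Nd1 had 311, 1140 and 533 CPM in the cKO libraries and 177, 379 and 303 CPM in the controls. mt-Nd4 had 433, 1230 and 490 CPM in the cKO libraries and 246, 371 and 296 CPM in the controls. The cKO libraries were all above the controls for mt-Nd4, whereas for mt-Nd1 cKO replicate 1 lay within the control range. Both were highest in cKO replicate 2.

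The other complex I genes went the opposite way in that library. mt-Nd2 had 232, 0 and 239 CPM in the cKO libraries and 85.3, 249 and 140 CPM in the controls, so cKO replicates 1 and 3 lay within the control range. mt-Nd5 had 150, 1.76 and 181 CPM in the cKO libraries and 67.9, 83.6 and 45.0 CPM in the controls. cKO replicates 1 and 3 were above all controls for mt-Nd5, and the value in cKO replicate 2 was a single read. mt-Nd6 is the one mRNA gene on the opposite strand and overlaps mt-Nd5 by 14 bases, and its human counterpart lacks the usual long adenosine tail. It had 44.6, 0 and 92.6 CPM in the cKO libraries and 35.7, 26.5 and 64.0 CPM in the controls. Counting did not use strand, so mt-Nd6 could hold reads from the other strand.

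The reads of cKO replicate 2 were also set against its total, which covers counting error only and takes no account of PCR copies in a small library. At the lowest CPM seen in the other 5 libraries, that library would have held 48.5 reads of mt-Nd2, 25.6 of mt-Nd5, 15.1 of mt-Nd6 and 6.42 of mt-Tm, where it had 0, 1, 0 and 0. At the same level it would have held 101 reads of mt-Nd1 and 140 of mt-Nd4, where it had 648 and 699. The library thus had 7 of the 10 genes found in each of the others, some above and some below the range of the rest.

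Complex III, which passes electrons from ubiquinol to cytochrome c, has 1 mitochondrially encoded subunit, cytochrome b. Its gene mt-Cytb had 511, 1110 and 652 CPM in the cKO libraries and 222, 331 and 472 CPM in the controls. Every cKO library was above every control for this gene. It shared no 50-base window with a nuclear transcript and overlaps no other mitochondrial gene.

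Of the 3 subunits of complex IV, the terminal oxidase, only mt-Co1 had reads. It had 494, 551 and 420 CPM in the cKO libraries and 237, 229 and 342 CPM in the controls, again with no overlap between groups. In contrast to mt-Nd1, mt-Nd4 and mt-Cytb, its level in cKO replicate 2 was near that of the other cKO libraries. Both complex V genes were at 0.

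**Figure D3:**
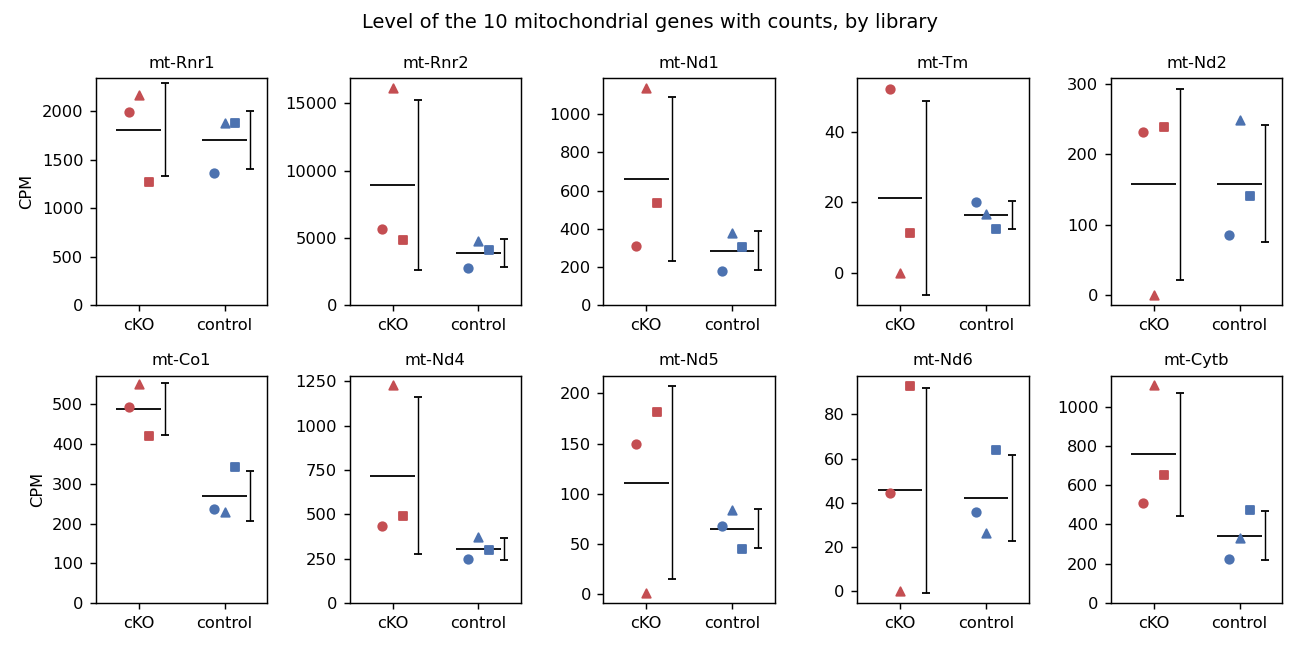
CPM of the 10 mitochondrial genes with counts in each library, 1 panel a gene, with the 3 cKO libraries (red) left of the 3 control libraries (blue); lines are group means and bars are the SD. For mt-Rnr2, mt-Co1, mt-Nd4 and mt-Cytb every cKO point is above every control point, and cKO replicate 2 (triangles) is at or near 0 for mt-Tm, mt-Nd2, mt-Nd5 and mt-Nd6.

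Within the mitochondrial mRNA counts the complexes held similar proportions in both groups. Complex I took 53.8%, 58.8% and 58.9% in the cKO libraries and 57.2%, 66.5% and 51.0% in the controls. Complex III took 23.5%, 27.5% and 25.0% against 20.7%, 19.8% and 28.4%, and complex IV 22.7%, 13.7% and 16.1% against 22.1%, 13.7% and 20.6%. For each complex the ranges of the groups overlapped. These proportions describe the 7 genes that had reads, not the complexes.

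Together the 37 genes held 0.991%, 2.24% and 0.872% of the counts in the cKO libraries and 0.520%, 0.831% and 0.769% in the controls. These shares come from the 10 genes with reads and hold no read of the 6 mRNA genes at 0. The Clopper-Pearson 95% interval, for counting error only, was widest in cKO replicate 2 at 2.20% to 2.28%. The mean was 1.37% ± 0.756 in cKO samples and 0.707% ± 0.165 in controls (SD, n = 3 each). All cKO libraries were above all controls, which gave an exact two-sided permutation p = 0.1, the smallest that 3 against 3 can give. Without cKO replicate 2 the cKO mean was 0.932%, a difference of 0.225 percentage points from the controls (exact permutation p = 0.2, where 0.1 is the smallest possible), against 0.66 percentage points with it.

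The mRNA part, which rests on the 7 mRNA genes with reads, separated the groups more evenly than the rRNA part. Mitochondrial mRNA made up 0.218%, 0.403% and 0.261% of counts in the cKO libraries and 0.107%, 0.167% and 0.166% in the controls. The means differed by 0.147 percentage points, or 0.0925 without cKO replicate 2, and the groups did not overlap with or without it (exact permutation p = 0.1 for each, the smallest possible). Mitochondrial rRNA made up 0.768%, 1.83% and 0.611% of counts in the cKO libraries and 0.411%, 0.663% and 0.601% in the controls. The groups overlapped, with a difference of 0.512 percentage points, or 0.131 without cKO replicate 2 (exact permutation p = 0.2, and p = 0.4 without it). The tRNA share, from mt-Tm alone, differed by 0.000478 percentage points (exact permutation p = 1).

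Within the mitochondrial counts, rRNA took 77.5%, 82.0% and 70.0% in the cKO libraries and 79.0%, 79.7% and 78.2% in the controls. The mRNA part of these counts came from 7 of 13 genes. The controls lay close to each other and the cKO libraries on both sides of them. The means were 76.5% ± 6.06 in cKO samples and 79.0% ± 0.755 in controls (SD, n = 3 each), with an exact permutation p = 0.7. Without cKO replicate 2 the cKO mean was 73.7% and both cKO libraries were below all controls (exact permutation p = 0.1, the smallest possible).

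**Figure D4:**
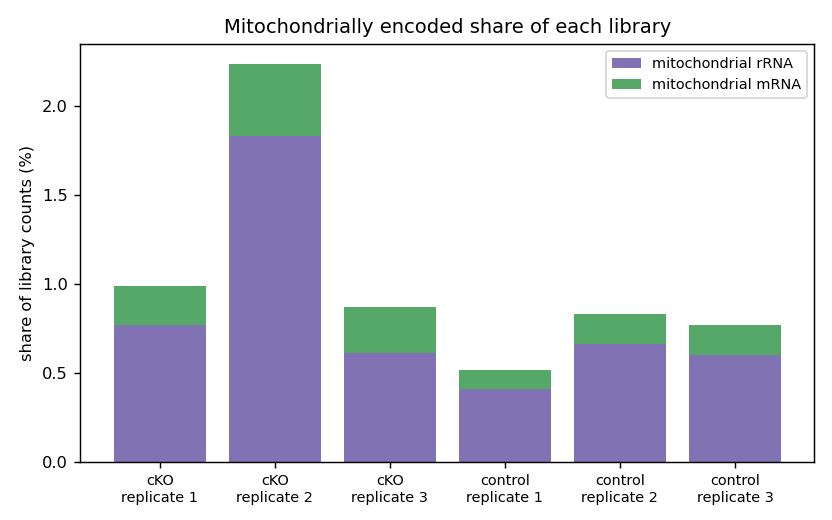
Share of all counts of a library that came from mitochondrial rRNA (purple) and mRNA (green), stacked, in percent, for the 3 cKO libraries on the left and the 3 control libraries on the right; the tRNA share is too small to draw. cKO replicate 2 stands at 2.24% in all, and the other 5 libraries between 0.520% and 0.991%.

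The design sets the samples labelled Ift88 cKO against those labelled Ift88 control. In edgeR's quasi-likelihood test over 12833 genes, 0 of the 10 mitochondrial genes with reads passed a Benjamini-Hochberg adjusted p of 0.05. Over all genes tested, 0.00779% were called higher and 0.00779% lower. The 27 genes at 0 could not be tested. At an unadjusted p under 0.05, edgeR held 1 of the 10, mt-Rnr2, and 363 of all 12833 genes, and DESeq2 held 4 of the 10 and 810 of all genes, with 0 of the 10 called after adjustment by DESeq2. When cKO replicate 2 was left out, 0 of the 10 passed among 14562 genes tested, of which 0% were called higher and 0.00687% lower, and 3 of the 10 had an unadjusted edgeR p under 0.05, as had 887 of all genes. An adjusted p above the threshold does not show that a level was the same in both groups. In bulk samples fewer cells of a type and less RNA per cell cannot be told apart.

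mt-Rnr2 had the smallest p. Its mean was 8894 ± 6307 CPM in cKO samples and 3876 ± 1026 CPM in controls (SD, n = 3 each). By edgeR's quasi-likelihood test the log2 fold change was 1.15 (SE 0.30), with a Benjamini-Hochberg adjusted p = 0.258. It was 0.46 (SE 0.27) without cKO replicate 2, with an edgeR adjusted p = 0.847. It passed without cKO replicate 1 (1.33, edgeR adjusted p = 0.0300) and without cKO replicate 3 (1.41, edgeR adjusted p = 0.0120), where cKO replicate 2 made up 1 of the 2 cKO libraries left. Scaling changed the size: the log2 fold change was 2.26 with RLE and 5.64 (SE 3.67) with upper-quartile scaling, and neither passed. In cKO replicate 2 at most 3651 of the 12833 genes tested had a count. Its upper quartile therefore rests on few reads, and values with that scaling are uncertain. Over the 12 alternatives the adjusted p ran from 0.0120 to 1.

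The mRNA genes had fold changes of similar size with larger errors. With all 6 libraries the log2 fold change was 1.19 (SE 0.91) for mt-Nd4, 1.16 (SE 0.95) for mt-Nd1, 1.12 (SE 0.88) for mt-Cytb and 0.84 (SE 1.04) for mt-Co1, each with an edgeR adjusted p of 1. It was 0.75 for mt-Nd5, 0.41 for mt-Tm, 0.14 for mt-Nd6, 0.06 for mt-Rnr1 and -0.01 for mt-Nd2, with standard errors of 0.52 to 1.78. Upper-quartile scaling gave all 10 a value above 0, with 3.97 for mt-Rnr1 and 0.17 for mt-Nd2. Once cKO replicate 2 was left out, the errors fell to 0.28 to 0.56 for the mRNA genes. mt-Nd5 then had 1.33 (SE 0.40), mt-Cytb 0.79 (SE 0.33), mt-Co1 0.79 (SE 0.28) and mt-Nd4 0.61 (SE 0.28), each with an edgeR adjusted p of 0.767. mt-Rnr1 stood at -0.04 (SE 0.29) in that comparison, and mt-Nd2, mt-Nd1 and mt-Nd6 at 0.59, 0.57 and 0.72.

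The 10 genes with reads had a median log2 fold change of 0.80, against -0.44 over all 12833 genes tested, and 0.67 against -0.06 without cKO replicate 2. With upper-quartile scaling the medians were 4.31 and -0.01. With all 6 libraries 9 of the 10 had a value above 0, as did 33.7% of all genes tested. It was again 9 of the 10 without cKO replicate 2, and 47.9% of all genes tested. In cKO replicate 2 at most 3651 of the 12833 genes tested had a count, while 7 of the 10 did. With all 6 libraries the 10 and the whole set of genes were therefore not compared on equal terms. The mitochondrial genes with reads share chromosome and library, and all but mt-Nd6 lie on the same strand, so their directions are not separate observations. In CPM, 4 of the 37 genes (mt-Rnr2, mt-Co1, mt-Nd4 and mt-Cytb), all among the 10 tested, were above all controls in every cKO library and 0 were below, while 1.33% of all genes tested were above and 11.1% below. Leaving out cKO replicate 2, 5 of the 37, again all among the 10 tested, were above, mt-Nd5 being the addition, and 0 were below, while 13.0% of all genes tested were above and 12.6% below.

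**Figure D5:**
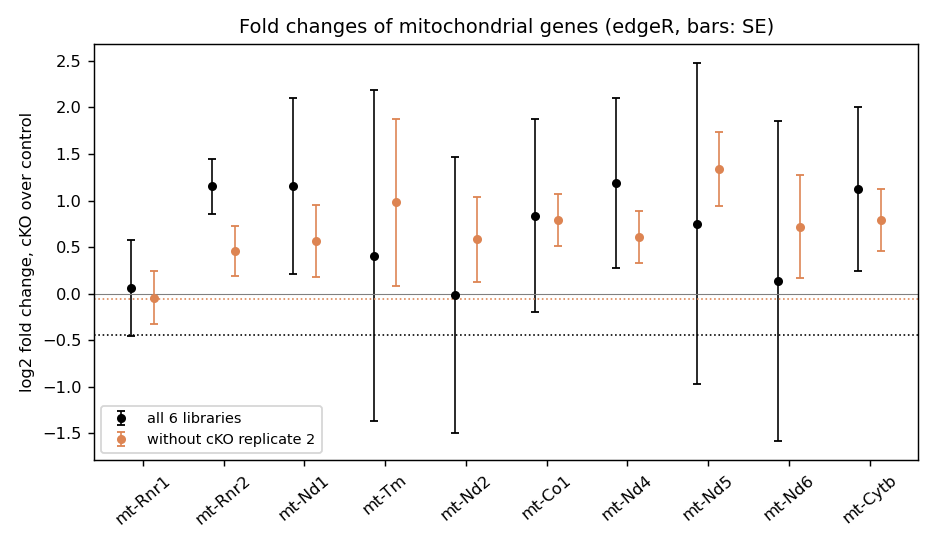
Log2 fold change, cKO over control, of the 10 mitochondrial genes with counts, with bars of 1 SE, from edgeR with all 6 libraries (black) and without cKO replicate 2 (orange); dotted lines are the medians over all genes tested, -0.44 and -0.06. The bars shorten without that library, and mt-Rnr1 is near 0 in both.

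Cell type markers also differed in the library with the highest mitochondrial share. Of 6 choroid plexus markers, 1 (Kl) was at 0 in all libraries. The list summed to 404, 46421 and 633 CPM in the cKO libraries and to 25.1, 16.4 and 0.221 CPM in the controls. Most of this was Ttr, the gene of transthyretin, with 5224, 26120 and 6756 counts in the cKO libraries and 343, 94 and 2 in the controls. The part of other cell types, and of depth, in the mitochondrial levels was not tested. Leaving out cKO replicate 2 does not remove the difference in the summed level. The sum was also higher in cKO replicates 1 and 3 than in all controls, as were Ttr and Otx2. Folr1, Prlr and Clic6 had 0 counts in cKO replicates 1 and 2 and at most 1 count in any control. In cKO replicate 3 they had 115, 82 and 76 counts.

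The nuclear genes that copy, transcribe, process and translate the mitochondrial genome were taken as 6 lists. In edgeR's quasi-likelihood test 0 of their 135 tested members passed in either direction, with 5 higher and 1 lower at an unadjusted p under 0.05, where 363 of all 12833 genes stood in either direction, and DESeq2 called 0. Their median log2 fold change was -0.58, against -0.44 over all genes. It was -0.21 over 143 tested members, against -0.06, without cKO replicate 2, again with 0 past the edgeR test.

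No gene for copying or transcribing the chromosome passed. Of 12 copying and packaging genes 8 were tested and 0 passed (median log2 fold change -1.26), and of 8 transcription genes 4 were tested and 0 passed (-0.85). The transcription genes not tested had 0 counts in all 6 libraries, and those tested had 0 counts in cKO replicate 2. Tfam, the protein that packs the chromosome and starts its transcription, had 74, 0 and 0 counts in the cKO libraries and 152, 96 and 111 in the controls. The cKO libraries were below all controls, as they were in CPM for 11.1% of all genes tested. For Tfam the edgeR adjusted p was 1 with all 6 libraries and without cKO replicate 2. Polrmt, the mitochondrial RNA polymerase, had 183, 0 and 42 counts in the cKO libraries and 397, 37 and 336 in the controls. Polg, the DNA polymerase, had 2, 0 and 93 counts in the cKO libraries and 58, 41 and 96 in the controls. Twnk, the helicase, had 0, 0 and 137 counts in the cKO libraries and 0, 4 and 170 in the controls and was not tested. The groups overlapped for Polrmt, Polg and Twnk. Among the copying genes, Ssbp1 and Top3a had the smallest p. Ssbp1, the single-strand binding protein, had 126, 0 and 487 counts in the cKO libraries and 631, 1012 and 559 in the controls. Top3a, a topoisomerase, had 0, 0 and 9 counts in the cKO libraries and 7, 97 and 265 in the controls. In CPM the groups overlapped for both, since cKO replicate 3 was just above the lowest control. Mterf4, a termination factor family member that acts with Nsun4 on the large ribosomal subunit, had 406, 0 and 89 counts in the cKO libraries and 965, 296 and 273 in the controls, with overlap.

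RNA processing genes gave 0 of 26 tested past the test and a median log2 fold change of -0.63. Lrpprc, which stabilises the mitochondrial mRNAs, had 642, 1 and 909 counts in the cKO libraries and 888, 982 and 1245 in the controls. Its partner gene Slirp had 1 count in control replicate 1 and 0 elsewhere. Mtpap, the enzyme that adds the adenosine tails, had 0.144, 383 and 7.13 CPM in the cKO libraries and 7.62, 2.12 and 0 CPM in the controls. Its value in cKO replicate 2 came from 218 reads. Nsun4, a methyltransferase of the mitochondrial ribosome, had 321, 411 and 130 counts in the cKO libraries and 109, 135 and 377 in the controls. In CPM its level was 723 in cKO replicate 2 and at most 27.8 in any other library.

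No translation gene passed. Of 10 translation factors, 18 aminoacyl-tRNA synthetases and 69 mitochondrial ribosomal proteins tested, 0 passed in each list, with median log2 fold changes of -0.81, -0.37 and -0.51. Mrpl14 of the large subunit had 18.4, 828 and 22.4 CPM in the cKO libraries and 17.4, 33.1 and 14.7 CPM in the controls. Mrps26 of the small subunit had 16.2, 500 and 21.7 CPM in the cKO libraries and 9.30, 11.1 and 0 CPM in the controls. Oxa1l, which inserts new subunits into the inner membrane, had 18.0, 728 and 44.3 CPM in the cKO libraries and 46.6, 64.9 and 62.7 CPM in the controls. Each of these genes was highest in cKO replicate 2. With that library left out, the log2 fold changes were -0.09 for Mrpl14, 1.45 for Mrps26 and -0.90 for Oxa1l, against 3.64, 4.61 and 2.10 with it (edgeR, adjusted p of 1 with all 6 libraries).

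Lars2, which charges mitochondrial leucine tRNA, stood out among the synthetases by its level. It had 2564, 2051 and 622 CPM in the cKO libraries and 1355, 607 and 884 CPM in the controls. cKO replicates 1 and 2 were above all controls and cKO replicate 3 lay within them (log2 fold change 0.86, SE 0.59, edgeR adjusted p of 1). Yars2, the tyrosine enzyme, had 2, 0 and 108 counts in the cKO libraries and 448, 478 and 382 in the controls, with all cKO libraries below all controls (log2 fold change -3.33, SE 1.97, edgeR adjusted p of 1). Mtrf1l, a release factor that ends mitochondrial translation, had 0, 0 and 51 counts in the cKO libraries and 256, 119 and 162 in the controls, also without overlap. Both genes were named for a small p in their list, and 11.1% of all genes tested were below all controls in every cKO library.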

How the data were processed

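RNA of 3 Ift88 cKO and 3 Ift88 control samples was made into QuantSeq 3′ FWD libraries, per the labels' protocols. Each deposited file holds 1 sample's unnormalized counts of reads per gene, made by the authors with featureCounts 2.0.0 on the Ensembl release 104 annotation of GRCm39, per the file headers. The submitters' processing notes also list STAR, FastQC and DESeq2, with no role given. The counting command gave no strand or multi-mapping option, per the file headers, and a read across overlapping genes is left out by default.

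Genes kept by filterByExpr were scaled by TMM and tested with glmQLFit (robust) and glmQLFTest in edgeR 4.0.16 (R 4.3.3), two-sided, with Benjamini-Hochberg adjustment over all genes; a standard error is the fold change divided by the square root of F. Shares were compared by exact permutation over samples. Floors took 3 counts and intervals 95%. Gene identifiers were given symbols from a lookup table (52083 of 55416 matched, 37 of 37 on MT). Sequences came from GENCODE M21 transcripts (GRCm38), where all 37 MT genes have the coordinates of the files, and were aligned with Biopython 1.88. The genes and lists were chosen with earlier results of these data known; all 37 genes are accounted for, and nuclear genes were named by 8 fixed symbols and the 2 smallest p of each list. Marker genes, the ratio of the rRNAs and the nuclear copies with reads fall outside that rule. Alternatives were RLE and upper-quartile scaling, scaling without MT genes, DESeq2 1.42.0, no filter, a replicate block, each library left out, a log2 scale and a library total without mitochondrial rRNA. The edgeR test was tested on simulated counts. At the spread between samples estimated from these data it did not recover the changes put in, with or without cKO replicate 2. At a low spread it recovered them and also called some unchanged genes. Every simulated gene was given the same spread. The outcome therefore does not show what the test could find for a given gene, such as mt-Rnr2 with its smaller standard error.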

Additional observations from a re-analysis of the deposited data

How the results depend on the processing

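Depth limited cKO replicate 2, where 0 counts allow up to 5.28 CPM, and counts of genes with near-identical nuclear copies, at 0 or not, are uncertain. Over all genes, 1 was higher and 1 lower with all 6 libraries. The counts of higher and lower genes were 14 and 2 with RLE scaling, 0 and 0 with upper-quartile scaling, and 3 and 2 with DESeq2. Higher genes numbered 22 with no filter and 0 with the replicate block. Leaving out 1 library gave 0 to 6 higher and 1 lower genes, and 0 to 1 mitochondrial genes called higher, which was mt-Rnr2 without cKO replicate 1 or 3. No alternative called a mitochondrial gene lower or any of the nuclear genes of mitochondrial expression in either direction. RLE and upper-quartile scaling moved the median log2 fold change of all genes to -0.28 and -0.01, and that of the 10 mitochondrial genes to 1.25 and 4.31.

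mt-Rnr2, mt-Nd1, mt-Co1, mt-Nd4, mt-Nd5 and mt-Cytb kept a positive log2 fold change under all 12 alternatives. mt-Nd2, at -0.01, changed sign with RLE scaling (0.0945), upper-quartile scaling (0.17), DESeq2 (0.0950) and no filter (0.0276), and ran from -0.43 to 0.59 with 1 library left out. mt-Rnr1 changed sign with no filter (-0.00204) and ran from -0.0841 to 0.25 with 1 library left out. mt-Tm and mt-Nd6 changed sign with the replicate block (-0.74 and -0.93) and ran from -1.48 to 0.98 and from -0.82 to 0.72 with 1 library left out. The cause was not tested. The difference in tRNA share ran from -0.00108 to 0.00154 percentage points and that in rRNA share of mitochondrial counts from -5.25 to 0.75 with 1 library left out. The difference in total mitochondrial share ran from 0.225 to 0.907, in rRNA share from 0.131 to 0.742 and in mRNA share from 0.0925 to 0.185. Same-numbered samples of the groups deviated together with correlations of 0.0850, 0.0380 and -0.0177 over 11254 genes, so the numbers were not taken as pairs. With the replicate block 0 mitochondrial genes passed in edgeR, the lowest adjusted p being 0.0920.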
